A study of Oryza sativa with 6 samples.

Results

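The roots of 3-week-old rice plants given a yeast were taken as 1 group, both times together, and set against roots taken when the yeast was added. The treated roots came from Oryza sativa cultivar Swarna MTU7029 given cells of the pigmented basidiomycete Rhodotorula mucilaginosa, strain JGTA-S1, and were harvested at 6 h (2 arrays) and 24 h (2 arrays). Roots of the same cultivar and age harvested at 0 h (2 arrays) served as the control. The 4 treated and 2 control arrays, chosen by their titles, are all 6 arrays of the study, and each gave a log2 signal for 41770 probe sets. No roots kept for 6 h or 24 h without yeast are among them, so the yeast and the elapsed time cannot be told apart. Whether the arrays stand for separate plants is not stated, so p-values reflect only how far these samples scatter, part of which may be technical, and the number of arrays limits the precision.

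Plant roots perceive microbes at the cell surface and pass the signal on through calcium influx, calcium-regulated kinases, small GTPases and MAP kinase cascades. Phytohormones, among them cytokinin, auxin and jasmonate, adjust root growth and defence, and type-A response regulators are induced by cytokinin and dampen its signal. Many root fungi take sugar from the plant, and the uptake of phosphate is governed by the transcription factor PHR2 and by SPX proteins that bind it.

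Pooling both times asks which transcripts lay apart from 0 h at 6 h and 24 h alike, because a gene that differed between the times counts as error. Of the 41770 probe sets, 2581 were higher and 920 lower in treated roots at a limma adjusted p under 0.05 (Benjamini-Hochberg), which is 8.38% of those tested, 6.18% higher and 2.2% lower. Taking 1 probe set for each of 14662 genes, 1530 genes rose (10.4%) and 147 fell (1%). Among the 1948 genes with a name, 234 rose (12%) and 17 fell (0.873%), 12.9% in all. In every passing gene the 4 treated arrays lay on one side of both controls, and over all genes this held for 28.9% above and 9.32% below. The median fold of the genes that rose was 2.72 and that of the genes that fell was 2.42 downward. In bulk RNA, fewer cells of a type and less RNA per cell cannot be told apart.

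The counts moved with single arrays and with scaling. Without the first 6 h array 698 probe sets were higher and 94 lower, without the first 24 h array 795 and 112, and without the second 24 h array 995 and 146, whereas without the second 6 h array the counts were 3666 and 1533. Without the first control array 1861 probe sets were lower, and without the second 1264. After quantile normalization 1015 were higher and 560 lower, and after cyclic loess 600 and 404. The share of higher calls was 73.7% as deposited, 64.4% after quantile normalization, 59.8% after cyclic loess and 83.5% after centring each array on its median, where 666 were lower. The SD of signal over probe sets was 1.62 to 1.82 on treated arrays and 1.46 to 1.50 on control arrays. After centring the arrays and scaling them to equal spread, 1872 probe sets were higher and 822 lower, a higher share of 69.5%. Beyond that, the part of this difference in the results was not tested. The log2 signals of the control pair had a Pearson correlation of 0.868. Set against the treated arrays, the first control gave 0.871 to 0.888 and the second 0.855 to 0.872. By correlation, then, the control pair was no more alike than the first control and treated arrays. By median absolute difference it was closer, at 0.450 beside 0.463 to 0.563 between groups. The first 6 h array correlated more with the 24 h arrays (0.978 and 0.971) than with the second 6 h array (0.936). The median difference over all genes with a name was 0.32 as deposited and 0.09 after quantile normalization, so list medians are read beside it. All 1677 passing genes kept their sign under quantile normalization, cyclic loess and equal spread. They also did under median centring and in the 6 fits without 1 array, where no sign could change. Centring shifts all genes alike by less than the smallest passing difference, and the treated arrays of these genes lay on one side of both controls. Of them 292 higher and 41 lower genes also passed after quantile normalization, cyclic loess and scaling to equal spread, a count added after seeing the data.

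Single genes depended on the arrays in the same way. Of 116 passing genes singled out by the naming rule, 39 passed without the first 6 h array, 46 without the first and 45 without the second 24 h array, 109 without the second 6 h array, and 93 and 63 without the first and second control arrays. Among all passing genes with a name, 40 rises and 1 fall passed in each of these fits and after quantile normalization, cyclic loess and scaling to equal spread. They include OsCDPK17, OsCDPK28, OsCIPK15, PIP5K, OsPP2C39, OsPP2C15, OsSAPK9, IAA24, OsTIFY10a, MYBAS1, OsSPX4, OsSPS2F, Os4CL5, KIN13A, KIN4A, both nuclear matrix genes and, as the fall, OsRR5. Of the 20 largest rises, OsAGO1b, BC1L6, K16, LTP2-A and CYCL1-1 did not meet this. At the other end, some passing genes described here passed under none of quantile normalization, cyclic loess and scaling to equal spread. Among the signalling genes these were OsCIPK10, OsCIPK02, CML4, CML31, OsMAPK6, MPK14, OsBIMK1, OsPP2C28 and OsPP2C41. Among the hormone genes they were OsRR10, OsAHP2, IAA6, IAA19, ARF9, OsARF16 and CYP714B2, and among transport and sugar genes OsTPP1, OsTPP4, HXK5, OsMTP5, OsHAK23 and OsSIP1;1. Among wall, redox and defence genes they were OsCesA4, OsCASPL1U3, OsMSRA4, OsMSRB5, OsAPx04, OsPDIL5-1, OsTrx18, Cht1, Cht2 and the lower OsEXLB1, and the falls of WEE1, OsMEL1 and KIN14P belong here too.

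**Figure D1:**
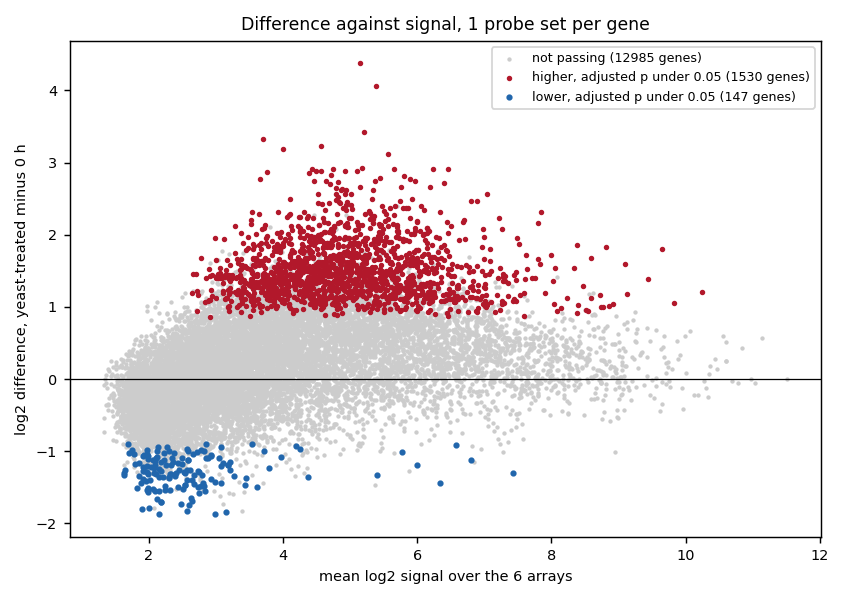
Log2 difference, yeast-treated minus 0 h, against mean log2 signal for 14662 genes, 1 point a gene. The 1530 higher genes lie mostly at middle and high signals and the 147 lower genes mostly at low signals. The mean includes the treated arrays, so a rise or fall itself moves a gene along this axis.

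Passing genes were unevenly spread over the mean signal of the 6 arrays, which a rise or fall in treated roots itself shifts. On the control arrays alone the median signal was 3.81 for higher, 3.28 for lower and 3.35 for all genes. By this mean, 0% of the 2933 dimmest genes were higher and 2.49% lower. Of the 2933 brightest 19.2% were higher and 0.239% lower, and the second brightest group of 2932 had the highest share higher, 22%. From dim to bright, the median difference of all genes in the 5 groups was -0.27, 0.03, 0.34, 0.69 and 0.56 as deposited. After quantile normalization it was -0.02, 0.13, 0.18, 0.24 and 0.07. The second 6 h array was the lowest of the 4 treated arrays for 1298 of the 2581 higher probe sets.

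Calcium-regulated kinases were among the largest rises. OsCDPK17, a calcium-dependent protein kinase, had signals of 5.45 and 4.85 at 6 h and 5.76 and 5.55 at 24 h, against 2.53 and 2.47 at 0 h. All treated arrays lay far above both controls, which were nearly equal. The log2 difference was 2.91 ± 0.29 (SE, 4 against 2 arrays), a 7.49-fold rise with a limma adjusted p of 0.00224. OsCIPK15, a kinase of the CBL-interacting family studied in rice under low oxygen, read 6.998 and 6.54 at 6 h and 6.97 and 6.74 at 24 h, against 4.33 and 3.76 at 0 h. The groups did not overlap, and the difference was 2.77 ± 0.27 (limma adjusted p = 0.00207). OsCDPK28 read 6.16 and 5.55 at 6 h and 5.95 and 5.76 at 24 h, against 3.39 and 4.03 at 0 h, again with no overlap and a difference of 2.14 ± 0.29.

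Of 19 calcium-dependent protein kinases 5 rose and 0 fell, with a median difference of 0.82 as deposited and 0.33 after quantile normalization. OsCDPK21 (1.89), OsCDPK5 (1.71) and OsCDPK18 (1.47) completed the 5. Across the fits without 1 array, 2 to 6 of the 19 were higher, and 2 also passed under all 3 other scalings. Of 19 CIPK kinases 4 rose and 1 fell, and the number higher ran from 1 to 5 without single arrays. OsCIPK10 rose by 1.60, OsCIPK26 by 1.56 and OsCIPK02 by 1.44, while OsCIPK30 fell by 1.30. OsCIPK30 read 1.87 and 2.21 at 6 h and 1.93 and 1.86 at 24 h, against 3.16 and 3.36 at 0 h, and the arrays of each group lay close together. CBL6, of the sensor family that activates CIPK kinases, rose by 1.12 ± 0.26 and was the 1 of 4 CBL genes to pass. All 4 read higher, and CBL2 (1.82) and CBL3 (1.55) differed by more than CBL6 without passing. After cyclic loess 0 of the 4 passed. Of 25 calmodulins and calmodulin-like proteins 2 rose, CML4 (1.79 ± 0.38) and CML31 (1.17 ± 0.25), a share of 8% beside 12% of all genes with a name.

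PIP5K, a phosphatidylinositol phosphate kinase that makes a membrane signalling lipid, read 6.32 and 6.09 at 6 h and 6.14 and 5.72 at 24 h, against 3.70 and 2.67 at 0 h. Every treated array was above both controls, and the controls lay further apart than the treated arrays did. The difference was 2.89 ± 0.33 (limma adjusted p = 0.00387), and it was the 1 of 8 inositol lipid and phosphate kinases to pass. OsRac5, a small GTPase of the ROP class, rose by 1.75 ± 0.25, 1 of 3 in its list. MAP kinases had the highest share of any list of 8 or more genes, with 5 of 11 higher and a median of 0.93 as deposited and 0.50 after quantile normalization. OsWJUMK1 rose by 1.63 ± 0.26, OsMAPK6 (LOC4339633) by 1.40 ± 0.29, MPK10 by 1.35 ± 0.24, MPK14 by 1.17 ± 0.25 and OsBIMK1 by 0.93 ± 0.23. After quantile normalization 1 MAP kinase passed and after cyclic loess 0, and without single arrays the count ran from 1 to 7.

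Of 48 protein phosphatases of the PP2C class, 5 rose (10.4%) and 0 fell. OsPP2C39 read 7.81 and 7.56 at 6 h and 7.39 and 6.98 at 24 h, against 5.45 and 5.003 at 0 h, a difference of 2.21 ± 0.30 with no overlap. OsPP2C15 (1.76 ± 0.24), OsABIL1 (1.84 ± 0.34), OsPP2C28 (1.70 ± 0.36) and OsPP2C41 (1.15 ± 0.25) were the others. OsSAPK9, an SnRK2 kinase of abscisic acid signalling, rose by 1.83 ± 0.28 and was 1 of 9 SnRK2 genes to pass. Of 4 phytosulfokine precursors, which yield growth-promoting peptides, PSK5 (1.39 ± 0.24) and PSK2 (1.49 ± 0.34) rose. Both also passed at equal spread, but neither did after quantile normalization or cyclic loess. Once either 24 h array was dropped, 0 of the 4 precursors passed.

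**Figure D2:**
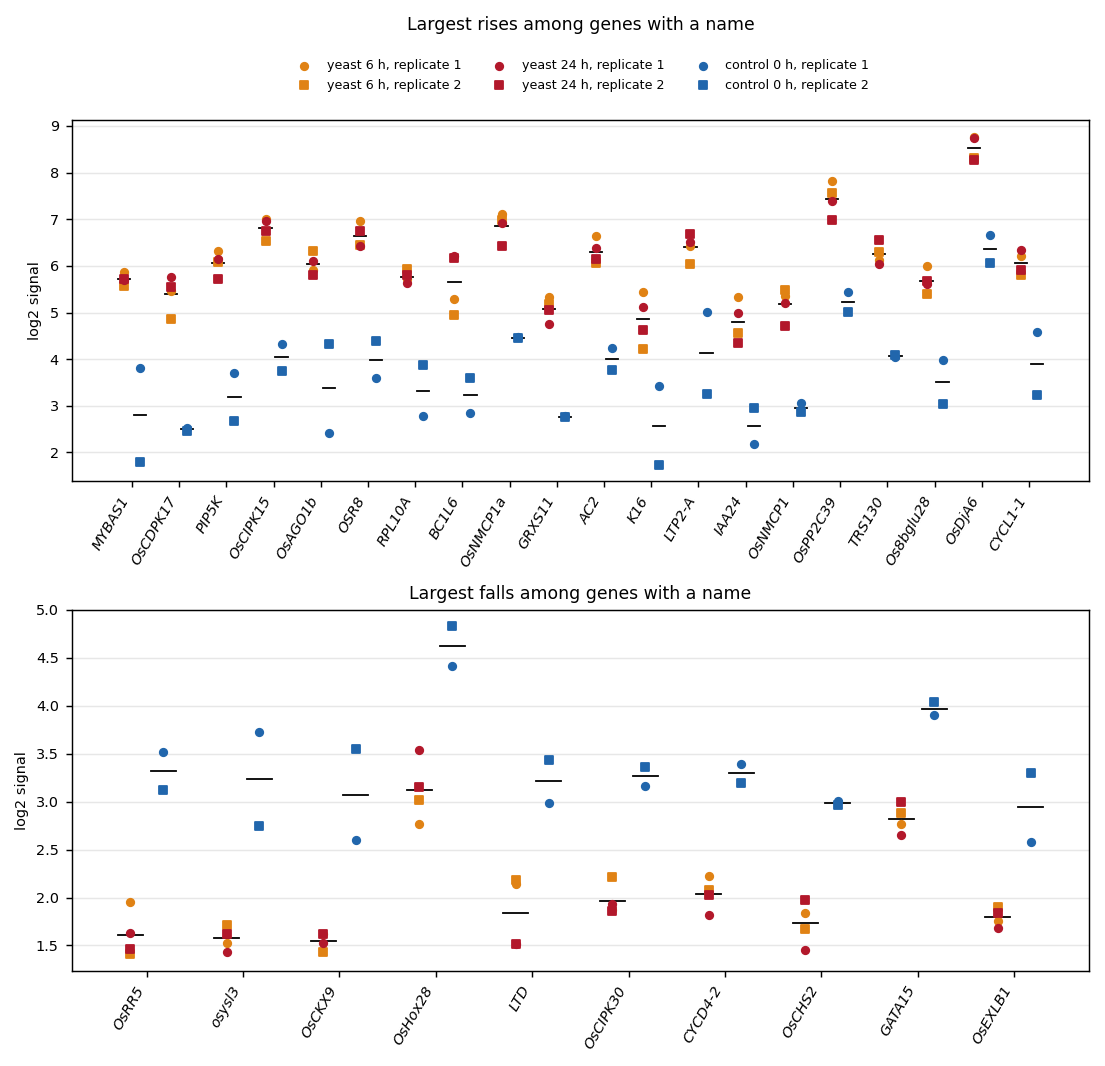
Log2 signal on each array for the 20 largest rises (top) and 10 largest falls (bottom) among genes with a name, with treated arrays left of control arrays and bars at the group means. In every gene shown the 4 treated arrays lie on one side of both control arrays, which the rule that chose these genes required.

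Cytokinin genes moved in both directions. OsRR5, a type-A response regulator, read 1.95 and 1.41 at 6 h and 1.63 and 1.47 at 24 h, against 3.52 and 3.12 at 0 h. The treated signals lay near or below the lower quartiles of the treated arrays (1.91 to 2.13), and their distance from background is unknown. OsRR5 was lower on all treated arrays than on both controls. It fell by 1.71 (SE 0.26, limma adjusted p = 0.00986), 3.26-fold, the largest fall among genes with a name, and it was the 1 of 17 such falls that passed in every fit without 1 array and under all 3 other scalings. In the same list OsRR10 read 8.30 and 7.76 at 6 h and 8.73 and 8.62 at 24 h, against 6.89 and 6.48 at 0 h and rose by 1.67 ± 0.32. OsRR9 rose by 1.54 ± 0.27 and OsRR4 by 1.48 ± 0.35. The other 6 of 10 did not pass, among them OsRR6 (1.05 ± 0.36, adjusted p = 0.106) and OsRR1 (0.99 ± 0.37, adjusted p = 0.13). OsRR10 and OsRR4 did not pass after cyclic loess, and without single arrays 0 to 4 type-A genes were higher.

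**Figure D3:**
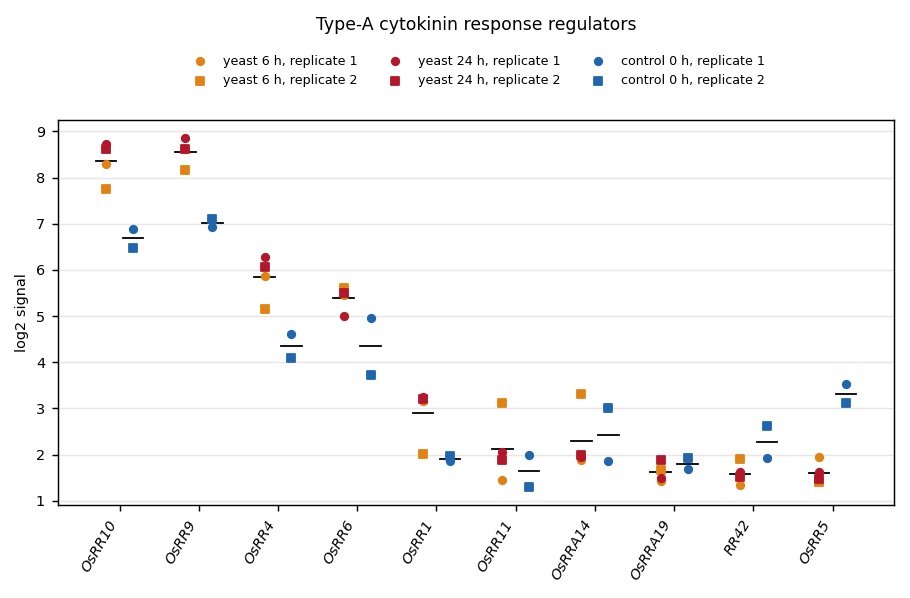
Log2 signal on each array for the 10 type-A cytokinin response regulators, ordered by difference, with treated arrays left of control arrays and bars at the group means. OsRR10, OsRR9 and OsRR4 lie above the controls and OsRR5 below them.

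Of 16 cytokinin receptor, phosphotransfer and metabolism genes 2 rose and 1 fell. OsHK1, a histidine kinase, rose by 1.38 ± 0.28 and OsAHP2, a phosphotransfer protein, by 1.23 ± 0.30. OsAHP2 passed in none of the 6 fits without 1 array, and after quantile normalization it differed by 0.62 (adjusted p = 0.311) and OsHK1 by 1.19 (adjusted p = 0.0634). OsCKX9, a cytokinin oxidase that degrades the hormone, fell by 1.52 (SE 0.30), and its adjusted p was 0.0657 after quantile normalization and 0.0688 after cyclic loess. By limma 0 of 4 type-B response regulators passed, with 1 at an unadjusted p under 0.05, and 1 was higher without the first control array.

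Of 24 Aux/IAA repressors, which hold auxin response factors inactive, 3 rose and 0 fell. IAA24 read 5.34 and 4.57 at 6 h and 4.98 and 4.34 at 24 h, against 2.18 and 2.94 at 0 h, a difference of 2.25 ± 0.35 with no overlap. IAA6 rose by 1.18 ± 0.30 and IAA19 by 0.99 ± 0.24. After quantile normalization IAA6 differed by 0.56 (adjusted p = 0.357) and IAA19 by 0.50 (adjusted p = 0.214), and IAA6 passed in none of the 6 fits without 1 array. ARF9 (1.14 ± 0.24) and OsARF16 (1.04 ± 0.22) rose among 10 auxin response factors, and OsPIN5 (1.51 ± 0.26) among 14 auxin carrier, synthesis and conjugation genes.

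Of 23 jasmonate genes 3 rose. OsTIFY10a, a JAZ-type repressor of jasmonate responses, read 7.69 and 7.63 at 6 h and 7.28 and 7.60 at 24 h, against 5.99 and 5.77 at 0 h and rose by 1.67 ± 0.24 (limma adjusted p = 0.00818). OsTIFY6a rose by 1.35 ± 0.24 and the lipoxygenase gene CM-LOX2 by 1.13 ± 0.27. By limma 0 of 7 ethylene genes passed, with 1 at an unadjusted p under 0.05, and 1 was higher without the second 6 h array. A single gene passed in each of the gibberellin (CYP714B2, 1.06 ± 0.28), abscisic acid (OsABIL1) and strigolactone and symbiosis (SMAX1L, 1.41 ± 0.26) lists.

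Among transcription factors MYBAS1, a MYB factor, had the largest rise. It read 5.88 and 5.57 at 6 h and 5.71 and 5.71 at 24 h, against 3.82 and 1.81 at 0 h. The controls lay wide apart and the treated arrays close together, with no overlap. The difference of 2.91 ± 0.47 ranged over 1.90 to 3.91 without single arrays, and its other probe set rose too, by 2.39. Of 45 homeobox factors 1 rose and 1 fell. OsHox28, a homeodomain-leucine zipper factor, read 2.77 and 3.02 at 6 h and 3.53 and 3.15 at 24 h, against 4.41 and 4.83 at 0 h and fell by 1.50 (SE 0.28). GATA15, a GATA factor, fell by 1.15 (SE 0.23), with treated arrays of 2.65 to 3.00 against controls of 3.90 and 4.03. Of 31 CCCH zinc finger genes 4 rose, led by OsC3H12 (1.46 ± 0.24), of 14 bZIP factors 3, of 24 MADS factors 2 with 1 lower, and of 6 WRKY factors 1. By limma 0 of 10 NAC factors and 0 of 9 DREB and ERF factors passed, with 1 and 0 at an unadjusted p under 0.05. OsCCA1, a morning-phased clock factor, rose by 1.75 ± 0.34, with differences of 1.30 at 6 h and 2.21 at 24 h that share the controls.

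Phosphate regulators gave 2 passing genes of 11. OsSPX4, a phosphate-dependent inhibitor of PHR2, read 4.77 and 4.41 at 6 h and 4.43 and 4.40 at 24 h, against 2.73 and 2.65 at 0 h. The groups were far apart, with a rise of 1.81 ± 0.24. PHR2, the central activator of phosphate starvation genes, rose by 1.81 ± 0.26 (limma adjusted p = 0.00775). By limma 0 of 10 Pht1 phosphate transporters passed (1 at an unadjusted p under 0.05). The same held for 8 ammonium transporters (3 at an unadjusted p) and 12 nitrate and assimilation genes (3 at an unadjusted p). Without the second 6 h array 2 ammonium transporters and 1 nitrate gene were higher. OsPht1;8, a Pht1 transporter, read 8.31 and 8.11 at 6 h and 8.02 and 8.10 at 24 h, against 8.25 and 8.29 at 0 h, with overlapping groups.

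Sugar genes had 9 of 41 higher and 0 lower, a share of 22%, although the list median of 0.16 was below that of all genes with a name (0.32). At equal spread it was 0.21 beside 0.17. OsSPS2F, a sucrose phosphate synthase, read 6.32 and 5.27 at 6 h and 5.89 and 5.48 at 24 h, against 3.64 and 3.90 at 0 h, a rise of 1.97 ± 0.32. OsSUS6, a sucrose synthase, rose by 1.75 ± 0.31, OsSUT4, a sucrose transporter, by 1.41 ± 0.28, and OsSWEET1a, of the SWEET sugar transporter family, by 1.67 ± 0.41. The hexokinases HXK5 (1.75) and HXK3 (1.32), the trehalose phosphate phosphatases OsTPP4 (1.49) and OsTPP1 (1.04) and the monosaccharide transporter OsMST5 (1.07) completed the 9. After quantile normalization 3 sugar genes were higher and after cyclic loess 1, and without single arrays 1 to 11 were. At equal spread 6 were higher and 3 lower, and 2 were lower without the first control array and 1 without the second control or the second 6 h array.

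Both amino acid carriers rose, BAT1 by 1.59 ± 0.31 and OsproT, a proline transporter, by 1.34 ± 0.27. At equal spread 2 carriers passed, but after quantile normalization and after cyclic loess 0 did. Without the first 6 h or the first 24 h array 0 passed as well. Of 41 metal transporter and nicotianamine synthase genes 2 rose and 1 fell. OsNramp3 rose by 1.46 ± 0.23 and OsMTP5 by 1.49 ± 0.36. The yellow stripe-like gene osysl3 read 1.52 and 1.72 at 6 h and 1.44 and 1.62 at 24 h, against 3.72 and 2.74 at 0 h and fell by 1.66 (SE 0.30), with an adjusted p of 0.0514 after quantile normalization. OsHAK15 (1.38 ± 0.34) and OsHAK23 (1.15 ± 0.27) rose among 25 potassium genes, and OsSIP1;1 (1.20 ± 0.24) among 17 aquaporins.

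**Figure D4:**
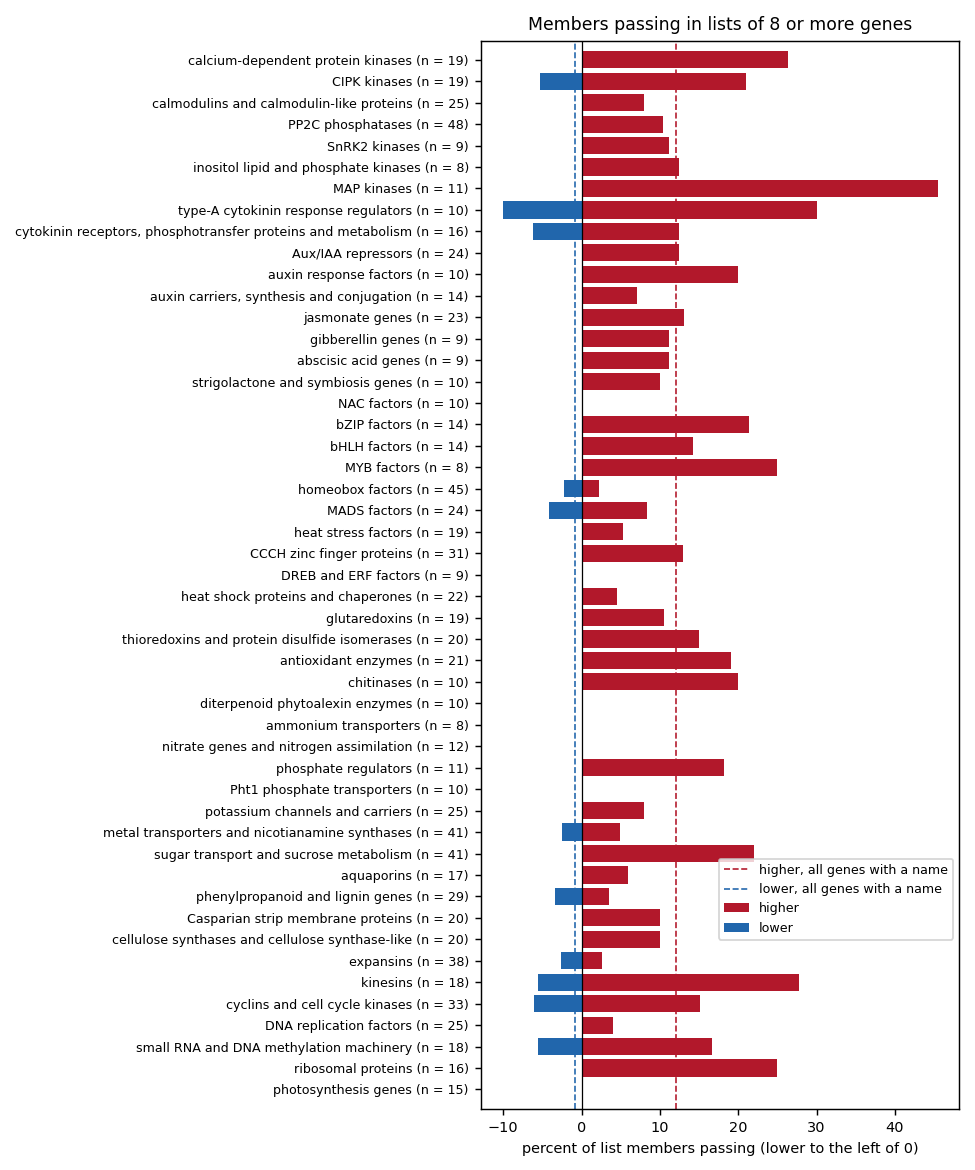
Percent of the members of each list of 8 or more genes that passed, higher to the right of 0 and lower to the left, with dashed lines at the shares over all 1948 genes with a name (12% and 0.873%). MAP kinases have the longest bar, and photosynthesis genes, Pht1 transporters and diterpenoid phytoalexin enzymes have none.

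Nuclear and RNA genes were among the largest rises. Both nuclear matrix constituent proteins, which shape the inner face of the nuclear envelope, rose. OsNMCP1a read 7.12 and 6.98 at 6 h and 6.91 and 6.42 at 24 h, against 4.47 and 4.46 at 0 h, a difference of 2.40 ± 0.27, and OsNMCP1 differed by 2.23 ± 0.28. Of 18 small RNA and DNA methylation genes 3 rose and 1 fell. OsAGO1b, an Argonaute that binds small RNAs, read 5.91 and 6.31 at 6 h and 6.11 and 5.80 at 24 h, against 2.42 and 4.33 at 0 h and rose by 2.66 ± 0.46, but its controls were wide apart and its adjusted p was 0.0745 after quantile normalization. The Dicer gene OsDCL4 rose by 1.59 ± 0.29, the DNA glycosylase gene DNG701 by 1.42 ± 0.26, and the Argonaute OsMEL1 fell by 1.08. Of 16 ribosomal proteins 4 rose, with RPL10A the largest at 2.45 ± 0.32.

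Kinesins, actin and division genes were read next. Of 18 kinesins, microtubule motors, 5 rose and 1 fell. KIN13A read 6.65 and 6.48 at 6 h and 6.62 and 6.33 at 24 h, against 4.78 and 4.44 at 0 h and rose by 1.91 ± 0.24, and KIN4A rose by 1.85 ± 0.23. K16, also named KIN7D, rose by 2.28 ± 0.49, with an adjusted p of 0.0703 after cyclic loess, and KIN14P fell by 1.07. The actin gene AC2 read 6.64 and 6.06 at 6 h and 6.37 and 6.14 at 24 h, against 4.25 and 3.78 at 0 h and rose by 2.29 ± 0.27. Of 33 cyclins and cell cycle kinases 5 rose, among them CYCP3-1 (1.71 ± 0.23) and CYCL1-1 (2.16 ± 0.37). CYCD4-2, a D-type cyclin, fell by 1.26 and WEE1, a kinase that holds back mitosis, by 0.94, while a further probe set of CYCD4-2 read lower by 0.35 without passing. Of the markers of dividing cells, 0 of 7 histones passed by limma, 1 at an unadjusted p under 0.05 and 2 higher without the first control array, and 1 of 25 DNA replication factors passed, and the part of dividing cells in these results was not tested.

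Among wall genes 2 of 6 COBRA-like genes rose. BC1L6 read 5.30 and 4.96 at 6 h and 6.21 and 6.18 at 24 h, against 2.84 and 3.61 at 0 h, a difference of 2.44 ± 0.42, and BC1L9 differed by 1.56 ± 0.30. OsCesA4, a cellulose synthase, rose by 1.24 ± 0.32 and OsCslA7 by 1.28 ± 0.33, 2 of 20. Of 38 expansins OsEXPA10 rose by 1.73 ± 0.34 and the expansin-like OsEXLB1 fell by 1.15, whose adjusted p was 0.0895 after quantile normalization and 0.0651 at equal spread. Os4CL5, which activates cinnamic acids for lignin and phenolics, read 6.82 and 6.86 at 6 h and 6.86 and 6.72 at 24 h, against 5.26 and 4.997 at 0 h and rose by 1.69 ± 0.23, whereas the chalcone synthase gene OsCHS2 fell by 1.25. Of 20 genes in the list of Casparian strip membrane proteins (CASP) 2 rose, OsCASPL1U3 (1.63 ± 0.39) and OsCASPL3A1 (1.19 ± 0.27). Their symbols mark both as CASP-like genes, so they do not stand for the Casparian strip itself. After quantile normalization and after cyclic loess 0 of the 20 passed.

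Among redox and defence genes the shares of passing members lay on both sides of the 12.9% of all genes with a name. Of 21 antioxidant enzymes 4 rose, the methionine sulfoxide reductases OsMSRA5 (1.42 ± 0.24), OsMSRB5 (1.39 ± 0.28) and OsMSRA4 (1.20 ± 0.22) and the ascorbate peroxidase OsAPx04 (1.34 ± 0.26), a share of 19%, and none of the 4 passed after quantile normalization. At equal spread 1 antioxidant gene was higher and 2 lower. Of 20 thioredoxins and protein disulfide isomerases, which reduce or form disulfide bonds, OsPDIL1-4 (1.58 ± 0.30), OsPDIL5-1 (1.27 ± 0.32) and OsTrx18 (1.19 ± 0.29) rose, a share of 15%. After quantile normalization and after cyclic loess 0 of these 20 passed, and without the second control, the first 6 h or either 24 h array 0 did. Among glutaredoxins GRXS11 read 5.33 and 5.18 at 6 h and 4.75 and 5.06 at 24 h, against 2.77 and 2.76 at 0 h and rose by 2.31 ± 0.25, 1 of 2 passing of 19. Of 10 chitinases, which cut the chitin of fungal walls, Cht2 (1.88 ± 0.46) and Cht1 (1.05 ± 0.23) rose, a share of 20%, and neither passed after quantile normalization, cyclic loess or scaling to equal spread. Under those scalings chitinases were lower instead, 1 after quantile normalization, 2 after cyclic loess and 1 at equal spread. Cht11 was the one after quantile normalization (-1.17, adjusted p = 0.0448), beside -0.79 ± 0.28 as deposited without passing. By limma 0 of 10 diterpenoid phytoalexin enzymes passed, with 2 lower at an unadjusted p under 0.05 and a median of -0.37. Of 22 heat shock proteins and chaperones 1 rose, CLPB-C (1.44 ± 0.28), a share of 4.55%. In this list 17 genes read lower and 5 higher, with a median of -0.17 beside 0.32 for all genes with a name. At an unadjusted limma p under 0.05, 3 were lower and 1 higher. At equal spread 2 passed as lower and 1 as higher.

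OSR8 (2.66 ± 0.30), the TRAPP complex homologue TRS130 (2.19 ± 0.25), named for a vesicle tethering subunit of Saccharomyces cerevisiae, the beta-glucosidase Os8bglu28 (2.16 ± 0.32), the J-domain protein OsDjA6 (2.16 ± 0.28) and the lipid transfer protein LTP2-A (2.27 ± 0.45) were the remaining large rises. LTP2-A has 2 probe sets with the same 6 values, and its adjusted p was 0.0861 after quantile normalization. LTD, named in Arabidopsis for delivering light-harvesting proteins, fell by 1.37. Among genes known by number, LOC4324184 read 6.95 and 6.45 at 6 h and 6.83 and 6.19 at 24 h, against 2.60 and 1.85 at 0 h. It rose 20.8-fold (4.38 ± 0.32), the largest rise of any gene. LOC9266183 rose 16.7-fold (4.06 ± 0.27). LOC4336398 fell by 1.87 and LOC4342224 by 1.87, and in both the controls lay wide apart.

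Markers of root and of other tissue were read on the same arrays. Of 15 photosynthesis genes, markers of green tissue, 0 passed by limma and 1 had an unadjusted p under 0.05, with a median difference of -0.26, and CAB1R read 4.77 and 4.59 at 6 h and 5.93 and 5.41 at 24 h, against 5.61 and 5.88 at 0 h. Of the root genes, the plasma membrane aquaporin OsPIP1;1 read 9.91 and 9.84 at 6 h and 9.63 and 9.79 at 24 h, against 9.67 and 9.58 at 0 h, with overlapping groups, and the ammonium transporter OsAMT1;1 read 6.47 and 6.56 at 6 h and 5.42 and 5.83 at 24 h, against 6.35 and 6.00 at 0 h, also overlapping. Both root genes were chosen after their values were seen and do not stand for their lists. Of 17 aquaporins 4 lay above both controls on all treated arrays and 2 below, and of 8 ammonium transporters 3 and 0. Of 41 metal transporter and nicotianamine synthase genes 8 lay above and 3 below, beside 33.3% and 6.83% of all genes with a name. Without detection calls the distance of dim genes from background is unknown.

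The difference between 24 h and 6 h came from the model with 1 mean per time, in which the spread between the controls is part of the error. By limma 0 of 41770 probe sets passed and 1097 (2.63%) had an unadjusted p under 0.05, or 474 of 14662 genes (3.23%). At an adjusted p 0 passed in each alternative run, a fit of the 4 treated arrays alone among them. The median difference from 0 h of the genes that rose was 1.44 at 6 h and 1.46 at 24 h, and of those that fell -1.24 and -1.27. These share the control arrays. The genes were chosen by the pooled test, which counts a difference between the times as error, so near-equal medians follow in part from that choice. By unadjusted p the named genes furthest apart were OsHsp24.1, a small heat shock protein, with a 24 h minus 6 h difference of 1.85 ± 0.33 (limma adjusted p = 1), OsITPK3, an inositol phosphate kinase (1.48 ± 0.34), and OsHsf-24, a heat stress factor (1.27 ± 0.30). On the lower side stood OsGLN1;2, a glutamine synthetase (-0.97 ± 0.30), NAC077 (-1.35 ± 0.41) and OsPAE1 (-0.97 ± 0.29).

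**Figure D5:**
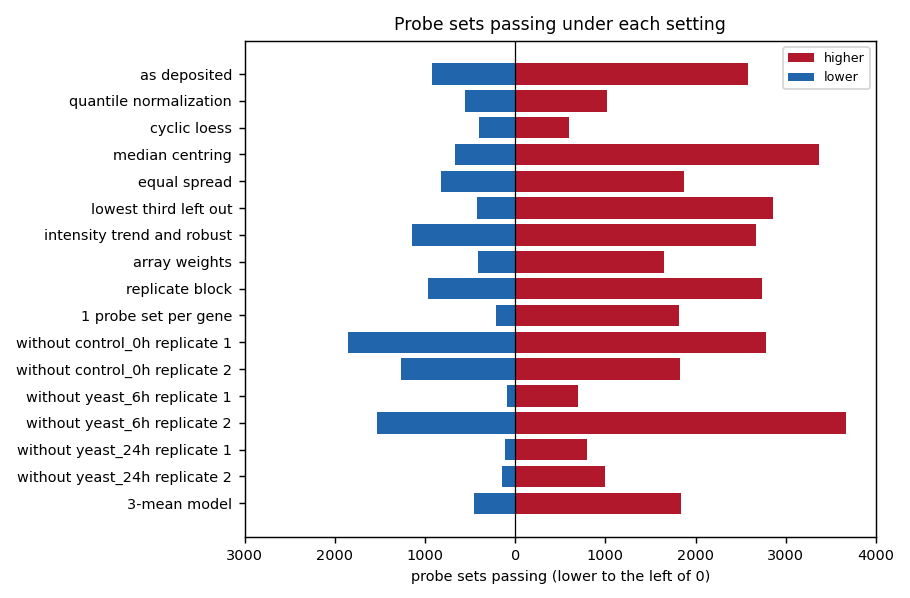
Probe sets passing under each setting, higher to the right of 0 and lower to the left, as deposited at the top. The counts as deposited are 2581 and 920, and the smallest higher count is 600 after cyclic loess.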

How the data were processed

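Total RNA of rice roots was labelled with biotin and hybridised to Affymetrix arrays, per the labels' protocols. The authors deposited 1 table of signal values for 41770 probe sets and 6 arrays, made with Affymetrix Expression Console, per the submitters' processing notes. Its version, and how signals were summarised, background-corrected and normalized, is not given in the sources. The deposited values were read as log2 signals from their range of 0.65 to 13.36, and every log2 difference and fold rests on that reading. Of the per-sample columns 0 were left out.

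Gene names came from the array's platform annotation: 15299 probe sets matched 1 gene, 436 matched several and 26035 matched no gene. Of 14662 genes, 14661 were found in a RefSeq gene table of assembly ASM3414082v1, which gave names for 1948. Each gene was represented by its probe set of highest average signal. Among 607 genes with several probe sets, these disagreed in sign in 213, and in 17 of 65 passing genes. In 471 probe sets the 6 values equalled those of another probe set.

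A linear model with 1 mean for the 4 treated and 1 for the 2 control arrays was fitted with limma 3.58.1 in R 4.3.3, with eBayes, and the Benjamini-Hochberg adjustment ran over all 41770 probe sets at a threshold of 0.05. The difference between 24 h and 6 h came from a model with 1 mean per time. The fit was tested on simulated data with equal error in both groups and planted differences larger than most found here. That test does not cover smaller differences or unequal spread between groups. Tables and plots used Python 3.11.15, pandas 2.3.3 and matplotlib 3.10.9. The group members and the 61 gene lists, matched by symbol, were chosen with earlier results of these data known. Genes were named by a rule: the 20 largest rises and 10 largest falls among passing genes with a name whose groups did not overlap, up to 3 members of each list by unadjusted p, 2 genes known by number in each direction, and 3 in each direction between the times. Other list members given with values are passing genes, markers or comparators chosen after their values were seen. Alternatives were quantile normalization, cyclic loess, median centring, equal spread, leaving out the lowest 33.3% of probe sets, an intensity trend with robust estimation, array weights, the replicate number as a block, 1 probe set per gene, a model with 3 means, a fold of at least 2, unadjusted p, and leaving out each array. Counts of genes shared between settings and list counts by setting were added after seeing the data. Promoter motifs were not analysed here.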

Additional observations from a re-analysis of the deposited data

Results flagged for a closer look

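For 7 of the 197 genes looked at (3.55%), 1 of the 4 treated arrays stood apart from the other 3 by Dixon's test, a criterion that chance meets in about 1 of 20 groups. The second 6 h array was the low one in 5 of them. In that array CBL6 read 3.56 while the other 3 treated arrays read 4.11 to 4.19, GRXS5 read 5.68 beside 6.48 to 6.51, and OsHAK15 read 3.93 beside 4.87 to 5.03. OsPYL11, an abscisic acid receptor gene that did not pass, read 5.33 there beside 6.05 to 6.14, and OsRFC2, a replication factor gene that did not pass, 2.65 beside 3.89 to 4.05. The first 6 h array was the high one for OsMADS56, at 7.26 beside 6.77 to 6.85, and for OsSPX4, at 4.77 beside 4.40 to 4.43.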

How the results depend on the processing

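As deposited 2581 probe sets were higher and 920 lower. The higher count was 1015 after quantile normalization, 600 after cyclic loess, 1652 with array weights and 6413 at an unadjusted p under 0.05. The lower count was 560 after quantile normalization, 404 after cyclic loess, 417 with array weights, 462 with 3 means and 4777 at an unadjusted p. Without the lowest 33.3% it was 425 of the 27846 probe sets then tested. A fit of 1 probe set for each of 14662 genes gave 213 lower genes, beside 147 as deposited. Leaving out 1 array gave 698 to 3666 higher and 94 to 1861 lower probe sets, and a lone control array was assumed to vary like the treated ones. The treated arrays lay above both controls in 7623 probe sets (18.2%) and below in 6796 (16.3%), and without single arrays in 8165 to 12463 and 7478 to 13278. Between 24 h and 6 h, 0 probe sets passed and 734 higher and 363 lower had an unadjusted p under 0.05. With the replicate number as a block 2735 were higher and 969 lower. Same-numbered arrays deviated together with correlations of 0.05, 0.03 and 0.16, so the numbers were not taken as pairs. No named gene that passed changed sign, though leaving out 1 array or centring on medians could not have changed one. Of 116 passing named genes 48 also passed after quantile normalization, 32 after cyclic loess and 82 at equal spread. Of the list medians under the 4 other scalings, 124 moved by more than 1 SD between treated arrays and 120 did not. The causes of these moves were not tested. Depth in the sense of reads does not apply, and signal over background is unknown.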

Other observations

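Further passing genes, chosen after their values were seen, belonged to membrane traffic, the actin cytoskeleton, calcium transport and purine metabolism. OsVPS9A, an activator of the Rab5 GTPase, rose by 2.05 ± 0.29 and OsRab5A, a Rab5 GTPase, by 1.13 ± 0.26. The exocyst subunit gene SEC10 rose by 1.28 ± 0.33 and the endosomal sorting gene CHMP1 by 1.33 ± 0.22. Of the actin nucleation complex, ARP2 rose by 1.62 ± 0.31 and ARP3 by 1.24 ± 0.26, and the actin depolymerising factors OsADF7 and OsADF6 rose by 1.45 ± 0.29 and 1.17 ± 0.30. OsFH5, a formin, rose by 1.36 ± 0.28.

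The calcium channel gene OsTPC1 read 5.33 and 4.82 at 6 h and 5.44 and 5.24 at 24 h, against 2.67 and 4.08 at 0 h and rose by 1.83 ± 0.39, with controls wide apart. The calcium exchanger gene OsCAX3 rose by 1.58 ± 0.35 and the calcium pump gene OsACA9 by 1.46 ± 0.36. The adenosine kinases ADK-A and ADK-B rose by 1.95 ± 0.29 and 1.29 ± 0.28, AMP deaminase AMPD by 1.21 ± 0.29, and OsAAH and OsUAH, which release ammonia from ureides, by 1.29 ± 0.28 and 1.40 ± 0.34. After quantile normalization, cyclic loess and scaling to equal spread, OsVPS9A passed each time, whereas OsRab5A, SEC10, CHMP1, OsADF6, ADK-B, AMPD, OsAAH and OsUAH passed in none. These groups were picked from the passing genes and were not tested as groups.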
